A study of Mus musculus with 27 samples.

Results

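A piece of whole mouse lung can hold more or less of the conducting airways, and the libraries described here were ordered by how much RNA of ciliated airway cells they held. Each of the 27 libraries of the series was given a score, the mean log2(TPM + 1) of 4 genes of ciliated cells (Foxj1, Tppp3, Rp1 and Deup1) minus the mean of the library's own treatment group, where TPM is transcripts per M (M, mega). The 9 libraries with the highest and the 9 with the lowest scores, of 27 in all, were compared gene by gene with the treatment group as a covariate. These classes were defined from the measured values and are not groups of the study.

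RNA came from whole, flash-frozen lungs of male C57Bl/6J mice aged 7 to 8 weeks and was sequenced after polyA selection. House dust mite extract (HDM, 10 µg in 50 µl), an allergen, or phosphate-buffered saline (PBS) was given 5 times into the oropharynx at intervals of 2 to 3 days. After a further 24 h the mice received 100 µl of combustion products of paper, plastic and plywood (CP, 2 mg per ml) or saline (SAL) by the same route, and lungs were taken 24 h later. All mice were wild type. Each treatment group has 7 libraries (PBS_SAL, PBS_CP and HDM_CP) or 6 (HDM_SAL), and libraries are named here by group and by the number in their label. Total estimated counts ran from 56.3 M to 84.5 M per library, with 3 libraries under 60 M. The labels do not say that each library came from a separate mouse, so p-values measure only the spread between these libraries.

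The epithelium of mouse conducting airways is built mainly of ciliated cells, whose beating cilia move mucus, and of club cells, which secrete secretoglobins and metabolise inhaled chemicals. In allergic inflammation secretory cells can take on a goblet cell state and produce gel-forming mucins. Motile cilia are made by a fixed program: regulators such as Foxj1 turn on the genes, centrioles are multiplied around deuterosomes, and the axoneme of microtubules, dynein arms and radial spokes is built by intraflagellar transport. Ciliated cells are a small part of whole lung, most of which is alveolar epithelium, capillaries, stroma and immune cells.

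Scores of the high class were 0.56 in HDM_SAL 54, 0.14 in HDM_SAL 99 and 0.12 in HDM_SAL 50. They were 0.38 in PBS_CP 57, 0.23 in PBS_SAL 81 and in PBS_SAL 105, and 0.29, 0.20 and 0.12 in HDM_CP 49, 45 and 96. Those of the low class were -0.39 in HDM_SAL 100, -0.23 in HDM_SAL 52 and -0.20 in HDM_SAL 72. They were -0.30 and -0.22 in HDM_CP 66 and 98, -0.24 and -0.20 in PBS_SAL 64 and 104, and -0.20 and -0.12 in PBS_CP 59 and 102. The class means were 0.25 and -0.23, a difference of 0.49 on the log2 scale, and the 9 middle libraries lay between -0.11 and 0.10. The thresholds cut a continuous range: just outside the classes lay PBS_CP 58 at 0.10 and HDM_CP 67 at -0.11.

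Every group supplied libraries to both classes. HDM_SAL supplied 3 high and 3 low libraries and no middle one, HDM_CP 3 and 2, PBS_SAL 2 and 2, and PBS_CP 1 and 2. The spread of the score differed as well: it spanned 0.95 in HDM_SAL, 0.60 in HDM_CP, 0.59 in PBS_CP and 0.48 in PBS_SAL. Before the group mean was subtracted, the mean score was 4.94 ± 0.19 (SD, n = 7) in PBS_SAL, 5.03 ± 0.19 (n = 7) in PBS_CP, 5.28 ± 0.34 (n = 6) in HDM_SAL and 5.01 ± 0.22 (n = 7) in HDM_CP.

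**Figure D1:**
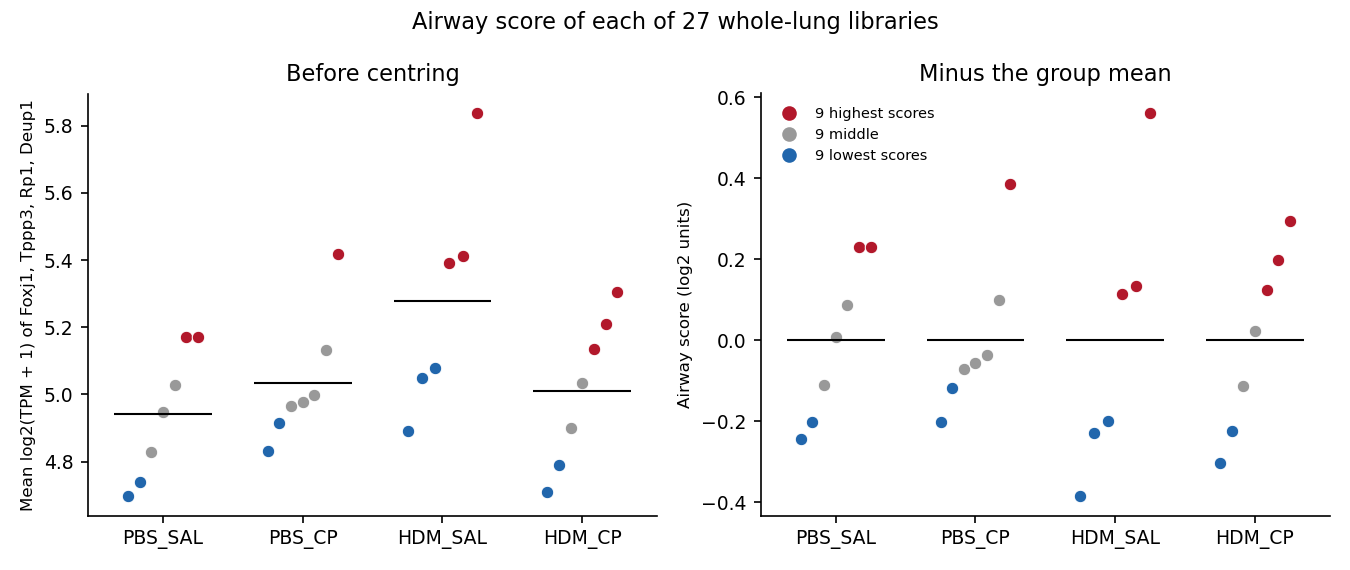
Score of each of the 27 libraries by treatment group, before (left) and after (right) subtraction of the group mean, in log2 units; each point is 1 library, coloured by class, and horizontal lines are group means. HDM_SAL holds no middle library and spans 0.95, the other groups 0.48 to 0.60.

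The 4 genes that chose the libraries did not contribute equally. Foxj1, the master regulator of motile cilia, was at 72.2 to 121 TPM in the high libraries and at 43.6 to 60.8 TPM in the low ones, without overlap. Deup1, which encodes a scaffold of the deuterosome, was at 2.74 to 12.9 TPM in high and at 2.34 to 5.46 TPM in low libraries, and Rp1, a microtubule protein of the axoneme, at 5.92 to 10.5 and 4.28 to 6.97 TPM. Tppp3, a tubulin polymerization protein, overlapped widely, at 377 to 649 TPM in high and 273 to 634 TPM in low libraries. On the scale of the model, high libraries exceeded low ones of the same group by 0.76 log2 units for Foxj1, 0.98 for Deup1, 0.57 for Rp1 and 0.29 for Tppp3. These values describe the choice of libraries and were not tested.

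Of 25531 other genes, 817 were higher and 261 lower in high-score libraries at an adjusted p under 0.05 by edgeR's quasi-likelihood test, a background of 4.22% in either direction, 3.2% higher and 1.02% lower. A change of at least 1.5-fold was seen in 392 of the higher and 10 of the lower genes. Of the higher genes, 87 stood on the lists of ciliated cell genes described below and 730 did not. Genes of those lists belong to the same program as the score genes, so their calls follow in part from the choice of libraries. Because the libraries were chosen by measured values of airway genes, a call says only that a gene varied with the score in these libraries. In these bulk samples, more cells of a type and more RNA per cell cannot be told apart. The higher count stayed between 613 and 985 when any single library was left out, while the count in both directions went from 1078 to 699 without HDM_CP 66, 709 without HDM_SAL 54, 1747 without HDM_CP 98 and 1654 without PBS_SAL 104.

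The count was smaller without HDM_SAL and with the mitochondrial share of the libraries as a covariate. Without the 6 HDM_SAL libraries 260 genes were higher and 0 lower (2013 at an unadjusted p under 0.05). With the percentage of counts in mitochondrial genes as a covariate 18 were higher and 0 lower (1495 at an unadjusted p under 0.05). The medians of the 3 axoneme lists described next were 0.47, 0.51 and 0.57 under that covariate, against 0.63, 0.65 and 0.71 without it, while that of regulators went from 0.52 to 0.26, that of centriole genes from 0.16 to 0.04 and that of intraflagellar transport from 0.23 to 0.15. That percentage was 2.08 to 3.86 in high libraries (median 2.71) and 2.24 to 2.52 in low ones (median 2.32), and the 3 values above 3 were those of HDM_SAL 54, 50 and 99. The difference within groups had an exact permutation p of 0.00222 (two-sided, 3600 arrangements within groups, 0.0133 after adjustment over 6 library properties, smallest possible p 0.000278). The part of this percentage in the gene results was not tested beyond that covariate. Because it varied with the class and was highest in high HDM_SAL libraries, these 3 cannot be fully told apart. Leaving out HDM_SAL also leaves fewer degrees of freedom. The other 5 properties, among them total counts (p = 0.78), globin share (p = 0.185) and ribosomal RNA share (p = 0.771), did not pass the same exact permutation test.

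Genes of the multiciliated cell program were higher in high-score libraries. They were part of the test above but are described without its results, because the score was built from genes of that program. Of the 10 measured regulators other than Foxj1, 9 were higher in high-score libraries, as were 50.1% of all genes tested, with a median difference of 0.52 log2 units against 0.00 over all genes. Trp73, a p53 family factor needed for multiciliation, differed by 0.64 ± 0.10 (SE), and its 9 high libraries lay at 12.8 to 23.1 counts per M (CPM) against 8.91 to 13.6 CPM in low ones. Myb differed by 0.54 ± 0.10, and Rfx2, a factor of the RFX family that binds cilia gene promoters, by 0.25 ± 0.07. Mcidas, a very early switch of the fate, differed by 0.91 ± 0.27, but it was at 0.388 and 0.678 CPM in the high PBS_SAL libraries and at 0.352 and 0.832 CPM in the low ones, which overlap. Its high libraries lay above the low ones in PBS_CP, at 3.51 CPM in PBS_CP 57 against 0.695 and 0.867 CPM, and in HDM_SAL, at 3.21 to 7.71 against 2.19 to 3.13 CPM, and overlapped with them in HDM_CP, at 1.98 to 3.64 against 1.13 to 2.07 CPM.

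Genes for making centrioles were uneven. The list median was 0.16 over 11 genes other than Deup1, with 8 of them higher. Ccdc78, a deuterosome protein, differed by 0.75 ± 0.09, and Cdc20b, a gene of early multiciliated cells, by 0.89 ± 0.29. Cdc20b was at 0.670 and 0.747 CPM in high and 0.478 and 0.831 CPM in low PBS_SAL libraries, which overlap. High and low libraries overlapped in HDM_SAL and HDM_CP too. In PBS_CP it was at 3.45 CPM in the only high library against 0.445 and 0.796 CPM. Its difference was 0.58 to 1.04 when single libraries were left out. Differences were smaller for Odf2, a protein of centriole appendages, at 0.16 ± 0.04, and for Cby1, a protein of the ciliary base, at 0.19 ± 0.05.

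Axoneme genes moved in a narrow band. All 22 measured genes of dynein arms and their assembly factors were higher in high-score libraries, with a median of 0.63 and a range of 0.15 to 0.76. The 20 genes of radial spokes, nexin links and the central pair had a median of 0.65 (0.21 to 0.77), and 32 further axoneme genes one of 0.71 (0.30 to 0.89), again with every member higher. Dnali1, a light chain of the inner dynein arm, differed by 0.74 ± 0.08, Dnai2 of the outer arm by 0.73 ± 0.08, and Drc3 of the nexin link by 0.72 ± 0.08. Rsph9, a spoke head protein, differed by 0.69 ± 0.08, and Cfap52, a microtubule inner protein, by 0.79 ± 0.09.

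Tekt1 encodes tektin, a filament inside axonemal microtubules. It was at 12.6 and 13.1 CPM in high and 6.49 and 7.29 CPM in low PBS_SAL libraries, and at 14.8 CPM in PBS_CP 57 against 7.63 and 10.1 CPM in PBS_CP 59 and 102. It was at 14.02, 16.0 and 21.7 CPM in high and 9.22 to 9.48 CPM in low HDM_SAL libraries, and at 12.0 to 14.2 against 6.86 and 7.16 CPM in HDM_CP. High and low libraries of Tekt1 did not overlap in any group, a pattern that 1.68% of all genes tested had in all 4 groups. The fitted difference was 0.86 ± 0.08.

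Intraflagellar transport, which also serves the non-motile primary cilia of most cells, moved less. Of 21 genes 19 were higher, with a median of 0.23 and a maximum of 0.50. Ift74 differed by 0.50 ± 0.05, Traf3ip1 by 0.46 ± 0.06, Ift81 by 0.34 ± 0.05 and Ift57 by 0.31 ± 0.05. The median of this list was 0.19 in PBS libraries alone and 0.24 in HDM libraries alone, below the medians of the 3 axoneme lists in either (0.58 to 0.78). By name, 38 genes described as cilia and flagella associated had a median of 0.62, 28 of them on none of the lists, and 37 were higher. For comparison, 101 ribosomal protein genes had a median of 0.07.

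Promoters of cilia genes often carry the X-box, the motif of RFX factors, and a strict form of it was looked for because genes of the program, Rfx2 among them, differed in the same direction. The letters searched, on both strands, were GTNNCC, any 3 bases and GNAAC, from 250 bases before to 50 after each start, in the RefSeq promoter table of GRCm38.p6, and no other motif was searched. They occur in 673 of the 27025 genes of that table (2.49%) and in 2.17% of its 32851 windows. Of the genes on the ciliated lists, score genes included, 98 were in the table and 15 of these held the letters (15.3%). Most of the listed genes thus had no match, and the share was not tested. Of the 4 score genes only Deup1 was in the table. Below are 60 bases around the match in 5 of the genes, on the gene's strand from 5′ to 3′, with the match in capitals. They are shown to set a score gene (Deup1), an early regulator (Ccno), a transport gene (Ift57) and 2 spoke and central pair genes (Spag16 and Iqca) side by side; the positions are chr9:15627897-15627956 (minus), chr13:112987560-112987619 (plus), chr16:49699184-49699243 (plus), chr1:69826844-69826903 (plus) and chr1:90153500-90153559 (minus).
Deup1: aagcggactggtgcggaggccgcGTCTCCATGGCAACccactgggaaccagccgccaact
Ccno: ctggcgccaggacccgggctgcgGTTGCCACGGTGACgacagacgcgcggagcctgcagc
Ift57: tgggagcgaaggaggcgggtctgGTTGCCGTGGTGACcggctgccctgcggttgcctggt
Spag16: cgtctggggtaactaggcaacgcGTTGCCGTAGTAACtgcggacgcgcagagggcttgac
Iqca: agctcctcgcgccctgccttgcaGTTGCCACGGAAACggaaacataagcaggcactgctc
The match lies 73 bases before the start in Deup1 and Ift57, 86 in Iqca, 89 in Spag16 and 205 in Ccno, and in Ccno and Ift57 it reads on the opposite strand. A match describes these letters only and is not evidence of binding. Spag16 differed by 0.72 ± 0.09, Iqca by 0.65 ± 0.12 and Ccno by 0.75 ± 0.24, the last at 1.51 to 14.3 CPM in high and 1.85 to 5.58 CPM in low libraries, which overlap.

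**Figure D2:**
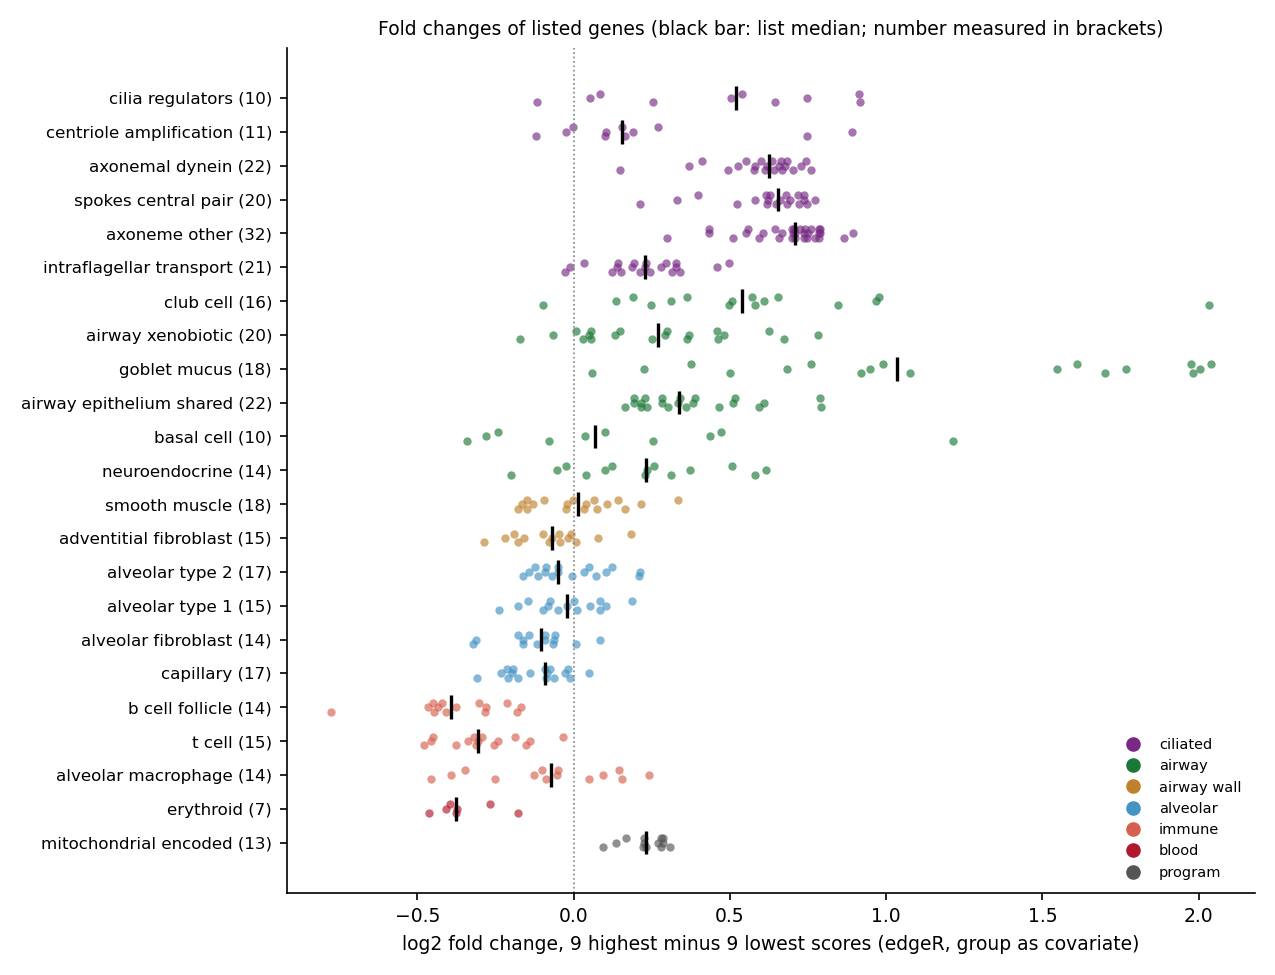
Fold change (log2, high minus low score, 18 libraries) of each measured gene of 23 lists; points are genes without the score genes, black bars list medians, and the number measured stands in brackets. The 3 axoneme lists sit near 0.63 to 0.71, intraflagellar transport at 0.23, goblet genes are spread up to 2.04, and alveolar lists lie near 0.

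Some club cell genes were higher as well, but their most familiar markers did not pass the test. Of 16 measured club cell genes, 5 passed as higher and 0 as lower, 15 had a positive difference, and the median was 0.54. Beside the background of 3.2% this is a larger share, but the list and the score come from neighbouring cells of the same epithelium. Lypd2, a Ly6 family gene, rose by 0.98 ± 0.18 (edgeR adjusted p = 0.00352) and Chad, which encodes chondroadherin, by 0.97 ± 0.15 (edgeR adjusted p = 0.000979). Gsto1, a glutathione transferase, rose by 0.65 ± 0.13, Gabrp, a subunit of a GABA receptor, by 0.57 ± 0.11, and Cckar, a cholecystokinin receptor, by 0.50 ± 0.12. With the mitochondrial percentage as a covariate the list median was 0.22, without HDM_SAL it was 0.43, and in PBS libraries alone 0.26. Cckar did not pass without HDM_SAL 72 (edgeR adjusted p = 0.0542).

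Lypd2 was at 11.7 and 13.3 CPM in high and 5.62 and 8.80 CPM in low PBS_SAL libraries. It was at 16.8 CPM in PBS_CP 57 against 7.73 and 10.7 CPM, and in HDM_SAL at 32.0 to 49.3 CPM against 11.8 to 23.3 CPM. In HDM_CP it was at 14.3, 30.7 and 32.5 CPM against 10.5 and 12.9 CPM. High libraries exceeded low ones in every group, although 2 middle libraries of HDM_CP lay above its lowest high library.

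Scgb1a1, the secretoglobin by which club cells are usually recognised, differed by 0.51 ± 0.15 (edgeR adjusted p = 0.0699), Scgb3a2 by 0.58 ± 0.19 (edgeR adjusted p = 0.0989) and Cyp2f2 by 0.36 ± 0.18 (edgeR adjusted p = 0.305). In HDM_SAL, Scgb1a1 was at 17485, 27460 and 33001 CPM in high libraries and at 16100 to 17712 CPM in low ones, so that HDM_SAL 99 lay among the low libraries. In PBS_CP it was at 19299 CPM in the high library and at 15942 and 19402 CPM in the low ones. Scgb1a1 passed the test in 4 of the 18 runs that left out 1 library, at an edgeR adjusted p of 0.0342 without HDM_SAL 99 and of 0.0411, 0.0487 and 0.0494 without HDM_CP 49, PBS_SAL 105 and PBS_CP 102, and Scgb3a2 passed without HDM_SAL 99 (edgeR adjusted p = 0.0368). The level of Scgb1a1 did not follow the order of the score in every library. When the libraries were ranked instead by Scgb1a1, Scgb3a2, Cyp2f2 and Cldn10, 5 of the 9 high and 6 of the 9 low libraries were the same, and 2 libraries changed to the opposite class. That ranking gave 478 higher and 129 lower genes, of which 330 were shared with the ciliated score.

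Enzymes of xenobiotic metabolism were mixed. Of 20 genes 4 passed as higher and 0 as lower, beside 3.2% and 1.02% of all genes, with a median of 0.27. Cyp2s1, a cytochrome P450, rose by 0.63 ± 0.09 (edgeR adjusted p = 0.00033), and its high libraries lay above the low ones in all 4 groups, at 172 and 199 against 112 and 117 CPM in PBS_SAL. Aldh3a1, an aldehyde dehydrogenase and a target of the aryl hydrocarbon receptor, rose by 0.67 ± 0.13, Aldh1a7 by 0.48 ± 0.12 and Gsta4 by 0.46 ± 0.11. Cyp1a1, the best known target of that receptor, differed by 0.39 ± 0.49 (edgeR adjusted p = 0.744). Aldh1a7 did not pass without HDM_SAL 50, 52 or 72 (edgeR adjusted p = 0.0527 to 0.062). The median of the xenobiotic list was 0.05 with the mitochondrial percentage as a covariate.

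Goblet and mucus genes had large differences with large errors. Of 18 genes 4 passed as higher and 0 as lower, beside 3.2% and 1.02% of all genes. All 18 were positive, and the median was 1.03. Agr2, a disulfide isomerase of mucin-making cells, rose by 2.04 ± 0.47 (edgeR adjusted p = 0.0221), Pigr, the receptor that carries IgA across epithelium, by 0.95 ± 0.19 (edgeR adjusted p = 0.00935), Spdef, a goblet cell factor, by 0.92 ± 0.25 and the mucin gene Muc20 by 0.50 ± 0.11. Muc5b differed by 1.55 ± 0.43 (edgeR adjusted p = 0.066), Muc5ac by 1.61 ± 0.62 (edgeR adjusted p = 0.169) and Clca1 by 1.98 ± 0.80 (edgeR adjusted p = 0.193). Scgb3a1, which stood on the club cell list, had the largest difference of that list, at 2.03 ± 0.67 (edgeR adjusted p = 0.109). With the club cell score the median of the goblet list was 0.17, and with the mitochondrial covariate 0.68.

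Calls of these genes changed when single libraries were left out. Agr2 did not pass without PBS_CP 57 (edgeR adjusted p = 0.073), HDM_SAL 54 (0.0589) or PBS_CP 59 (0.0517), and Spdef passed in 8 of 18 such runs, with the highest edgeR adjusted p, 0.105, without HDM_CP 66. Muc5b passed without HDM_SAL 72, PBS_SAL 81 or HDM_CP 98 (edgeR adjusted p = 0.0313 to 0.0476). The list median was 0.85 to 1.16 in 17 of the runs and 1.58 without HDM_CP 98. Agr2 was at 3.88, 7.09 and 12.2 CPM in high HDM_SAL libraries, against 0.376 CPM in HDM_SAL 52 and 1.86 and 3.65 CPM in the other low ones. It was at 3.31 to 7.84 CPM in high HDM_CP libraries, against 0.440 and 2.51 CPM in HDM_CP 66 and 98. In PBS_SAL all values were under 1 CPM, at 0.214 and 0.660 CPM in high and 0.0422 and 0.319 CPM in low libraries, which overlap. Pigr was at 332 to 479 CPM in high and 120 to 267 CPM in low HDM_SAL libraries, but in HDM_CP the low library 98, at 336 CPM, lay above 2 of the 3 high ones, at 287 and 335 CPM.

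Genes shared by airway epithelial cells passed the test more often than those of the other 3 airway lists, which were not compared by a test. All 22 were positive, and 14 passed as higher and 0 as lower, beside 3.2% and 1.02% of all genes. The median was 0.34, below those of the club cell (0.54) and goblet (1.03) lists. It was 0.19 under the mitochondrial covariate and 0.20 in PBS libraries alone. Tspan1, a tetraspanin, rose by 0.59 ± 0.09 (edgeR adjusted p = 0.000931), Sox2, the factor that sets conducting airway identity, by 0.79 ± 0.13 (edgeR adjusted p = 0.00153), Wfdc2 by 0.46 ± 0.08 (edgeR adjusted p = 0.00193) and the chemokine gene Cxcl17 by 0.79 ± 0.13 (edgeR adjusted p = 0.00213). Sox2 was at 17.2 and 17.5 against 11.3 and 13.6 CPM in PBS_SAL, at 20.0 against 12.6 and 17.4 CPM in PBS_CP, at 22.4 to 42.7 against 13.6 to 19.0 CPM in HDM_SAL and at 20.7 to 29.7 against 11.8 and 14.01 CPM in HDM_CP. High and low libraries did not overlap in any group for Sox2.

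**Figure D3:**
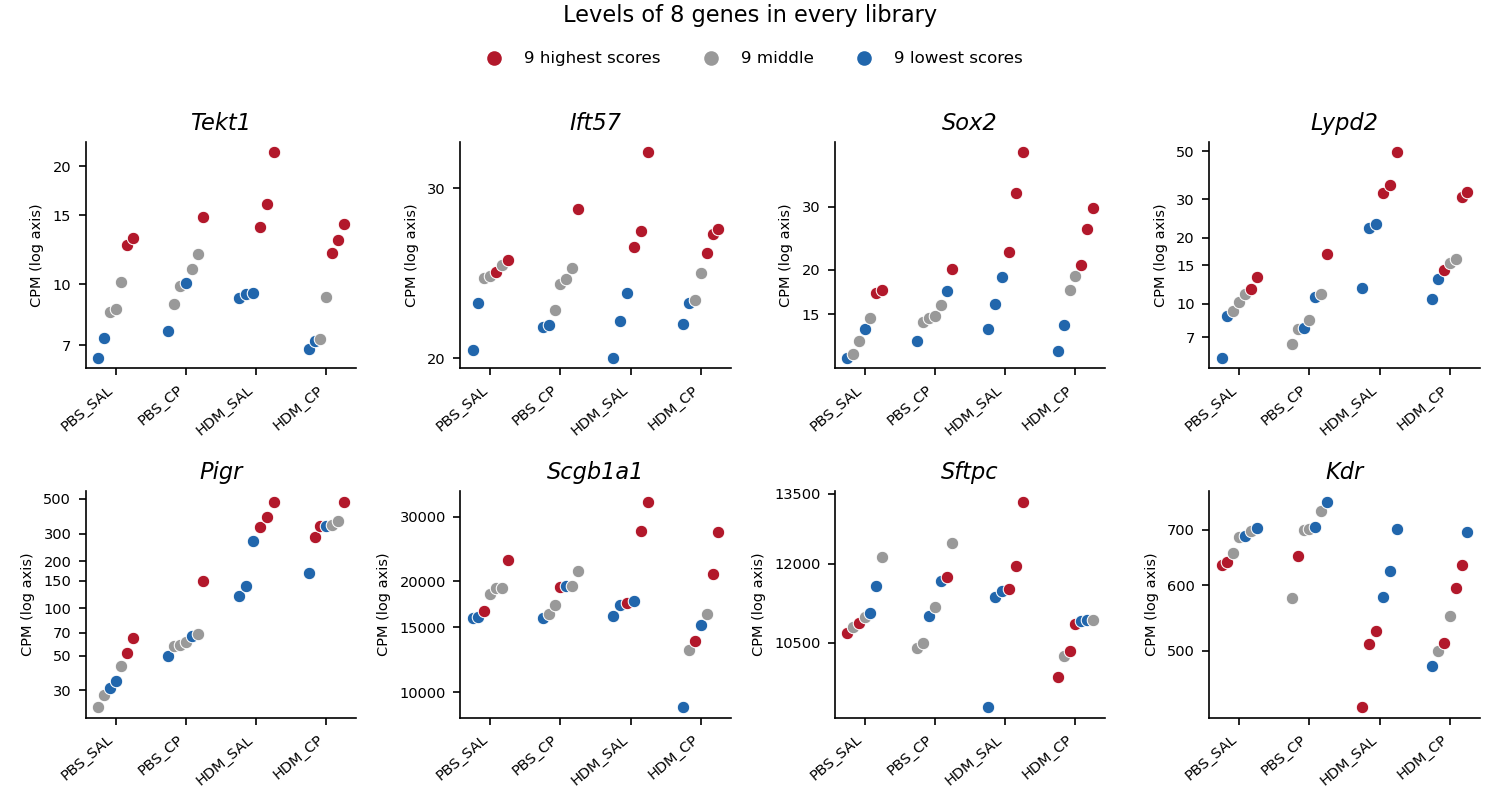
Level of 8 genes in every library, in CPM on log axes, by treatment group; each point is 1 library, ordered by level within its group and coloured by score class. High and low libraries are apart in all 4 groups for Tekt1, Ift57, Sox2 and Lypd2 and overlap in at least 1 group for Pigr, Scgb1a1 and Kdr; for Sftpc they are apart in each group, with the high libraries above the low ones in PBS_CP and HDM_SAL and below them in PBS_SAL and HDM_CP.

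The largest differences outside the ciliated lists included genes of several kinds. Sprr2a1, which encodes a small proline-rich protein of stressed epithelium, rose by 1.73 ± 0.47 (edgeR adjusted p = 0.0467), A2ml1, a protease inhibitor, by 1.23 ± 0.27, and AU040972 by 1.25 ± 0.25. Sprr2a1 passed in 3 of the 18 runs that left out 1 library, with the highest edgeR adjusted p, 0.129, without PBS_CP 57, and with the club cell score it was at -0.54. Atp6v1b1, a subunit of a proton pump, rose by 1.15 ± 0.20 (edgeR adjusted p = 0.00178) and Calml3, a calmodulin-like gene of epithelia, by 1.12 ± 0.17 (edgeR adjusted p = 0.00044). Calml3 was at 1.94 and 2.89 CPM in high and 0.775 and 0.991 CPM in low PBS_SAL libraries, and at 3.08 to 4.57 against 1.10 to 1.53 CPM in HDM_SAL. Jhy, Cfap95, Cfap141, Nhlrc4 and Wdr93 lay between 0.94 and 0.98 with standard errors of 0.11 to 0.13; the first 3 are known from cilia, although they stood on none of the lists.

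Most lists of rarer airway cells and of the airway wall held no called gene, beside 4.22% of all genes. In short lists this does not show a lack of difference. None of the 10 basal cell genes, 14 neuroendocrine genes, 9 tuft cell and ionocyte genes, 10 cartilage genes, 14 nerve sheath genes and 5 gland genes passed the test, with medians of 0.07, 0.23, -0.11, 0.08, 0.07 and 0.55. The gland median was close to that of club cell genes (0.54). The gland gene Ltf differed by 1.19 (edgeR adjusted p = 0.0893). Of the 14 neuroendocrine genes 11 were positive. Of 18 smooth muscle genes 1 passed as higher, beside 3.2% of all genes, and 9 were positive. The called gene was Pcp4l1 at 0.34 ± 0.08 (edgeR adjusted p = 0.0221). Acta2, the actin of smooth muscle, differed by 0.06 ± 0.12 (edgeR adjusted p = 0.836). Of 15 adventitial fibroblast genes 1 passed as lower, beside 1.02% of all genes, Dpp4 at -0.18 ± 0.05. Pcp4l1 did not pass without HDM_SAL 50 or HDM_CP 66 (edgeR adjusted p = 0.0521 and 0.0546), and Dpp4 passed in 6 of 18 runs that left out 1 library, with the highest edgeR adjusted p, 0.123, without HDM_CP 66.

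No listed gene of the alveoli passed the test, beside 4.22% of all genes. In lists this short, that does not show a lack of difference. The 17 alveolar type 2, 15 alveolar type 1, 14 alveolar fibroblast and 17 capillary genes had medians of -0.05, -0.02, -0.11 and -0.09. Sftpc, the surfactant gene of type 2 cells, differed by 0.03 ± 0.06 (edgeR adjusted p = 0.822) and Ager of type 1 cells by 0.08 ± 0.09 (edgeR adjusted p = 0.697). Of the capillary genes 16 of 17 were negative. Kdr, the main VEGF receptor, differed by -0.19 ± 0.08 (edgeR adjusted p = 0.168), at 427 to 528 CPM in high and 581 to 702 CPM in low HDM_SAL libraries. Without HDM_CP 98 Kdr passed as lower (edgeR adjusted p = 0.0172). The median of the capillary list was 0.11 with the mitochondrial percentage as a covariate and -0.01 without HDM_SAL.

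Lymphocyte and red cell genes had negative differences, none of which passed the test, where 1.02% of all genes were called lower. All 14 genes of B cells and follicles, all 15 T cell genes, all 12 natural killer genes and all 7 red cell genes had negative differences, with medians of -0.39, -0.31, -0.22 and -0.38, where 49.9% of all genes were negative. Cd3e differed by -0.46 ± 0.17 (edgeR adjusted p = 0.14), at 3.99 CPM in HDM_SAL 54, the lowest of all libraries. Hba-a1, an alpha globin gene, differed by -0.41 ± 0.29 (edgeR adjusted p = 0.495) and was lowest in HDM_SAL 54 too, at 811 CPM. Without PBS_SAL 104 Cd3e passed as lower (edgeR adjusted p = 0.0487). The red cell median was 0.39 with the mitochondrial percentage as a covariate and 0.00 without HDM_SAL. The T cell median was -0.05 with that covariate, -0.21 without HDM_SAL and -0.04 in PBS libraries alone, and the B cell median -0.28, -0.28 and -0.12. Medians over 14 alveolar macrophage, 14 neutrophil, 12 eosinophil and mast cell, and 14 dendritic cell genes were -0.07, -0.17, -0.20 and -0.13, with no gene called. Siglecf, of macrophages and eosinophils, differed by -0.46 ± 0.14 (edgeR adjusted p = 0.0727) and passed as lower without PBS_CP 102 (0.0214) or PBS_SAL 105 (0.0469).

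Lists of tissue that can be carried with a lung sample gave no call, where 4.22% of all genes were called. In such short lists this does not show a lack of difference. None of 17 heart muscle, 12 skeletal muscle, 9 mesothelium, 8 fat, 6 thyroid and thymus, and 7 squamous epithelium genes passed. The squamous list had the highest median of all lists, at 1.48, from genes whose summed level was 12.0 to 28.8 CPM in high and 10.5 to 22.99 CPM in low libraries. Of 10 lymphatic genes 1 passed as higher, beside 3.2% of all genes, while 8 were negative and the median was -0.21. The called gene was Tbx1 at 0.73 ± 0.12 (edgeR adjusted p = 0.000979). Tbx1 is a developmental factor, and it was at 11.4 to 23.9 CPM in high and 6.59 to 11.5 CPM in low libraries.

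Programs that respond to time of day, stress or inflammation were not called, where 4.22% of all genes were. With so few genes per list this does not show a lack of difference. The 16 clock genes, 14 glucocorticoid-induced, 17 immediate early, 17 interferon, 13 type 2 cytokine and 20 cell cycle genes gave no call, with medians of -0.03, -0.11, 0.11, 0.05, 0.02 and 0.16. Per1, a clock gene, differed by -0.47 ± 0.24 (edgeR adjusted p = 0.314) and Zbtb16, a target of glucocorticoids, by -0.70 ± 0.33 (edgeR adjusted p = 0.263). Of 18 collagen and matrix genes 1 passed as lower, beside 1.02% of all genes. It was Postn, which encodes periostin, at -0.31 ± 0.08 (edgeR adjusted p = 0.0438). Postn passed in 6 of the 18 runs that left out 1 library, with the highest edgeR adjusted p, 0.12, without HDM_CP 66.

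Genes encoded in mitochondria were higher in part. All 13 were positive, 4 passed as higher and 0 as lower, beside 3.2% and 1.02% of all genes, and the median was 0.23. The called genes were mt-Nd6 at 0.31 ± 0.08, mt-Nd4 at 0.28 ± 0.07, mt-Co2 at 0.28 ± 0.07 and mt-Cytb at 0.27 ± 0.07, which encode subunits of the respiratory chain. mt-Nd4 was at 2545 to 3158 CPM in high and 1936 to 2042 CPM in low HDM_SAL libraries, at 2045 to 2265 against 1775 and 1831 CPM in HDM_CP and at 2320 against 1743 and 1944 CPM in PBS_CP. In PBS_SAL the high libraries 105 and 81, at 1671 and 1888 CPM, lay on either side of the low ones. The list median was 0.12 without HDM_SAL. In the 18 runs that left out 1 library, mt-Nd6 and mt-Cytb passed in 10 each, mt-Co2 in 16 and mt-Nd4 in 17; the highest edgeR adjusted p was 0.0808 for mt-Nd6 and 0.0787 for mt-Cytb, both without HDM_SAL 52.

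**Figure D4:**
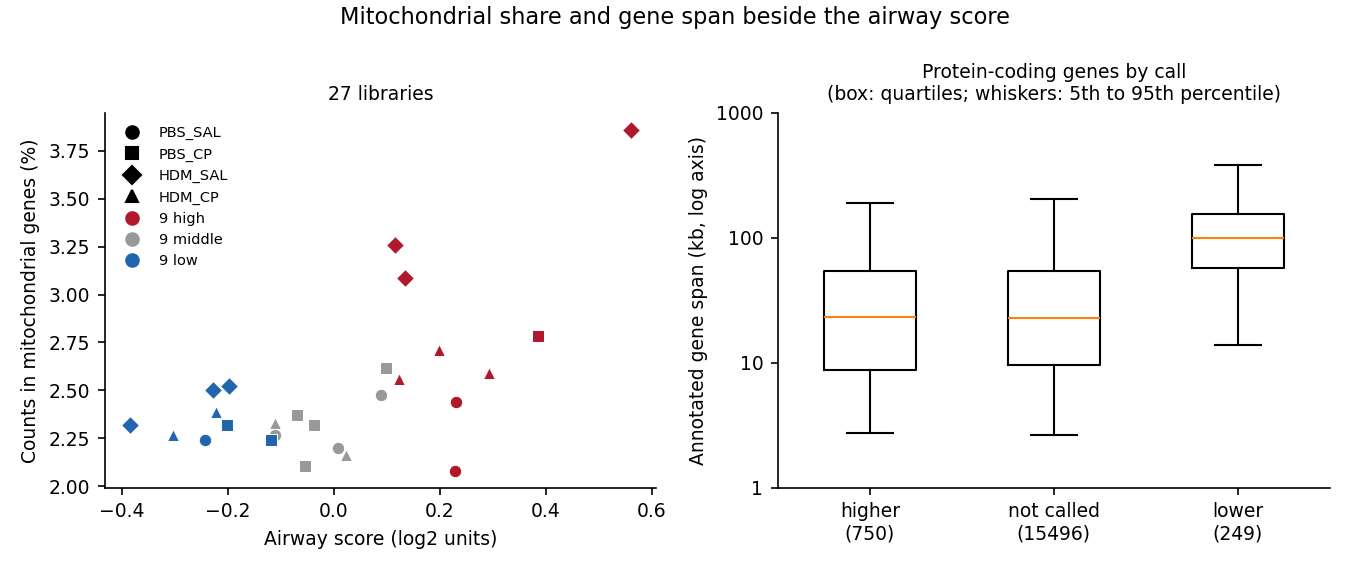
Left, percentage of counts in mitochondrial genes against the score in 27 libraries (colour, class; marker, group); right, annotated span of protein-coding genes by call, on a log axis, with quartiles and the 5th to 95th percentiles. The 3 libraries above 3% are the high HDM_SAL libraries, and genes called lower have a median span of 99.0 kb against 23.3 kb over all.

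The genes called lower differed from those called higher in level, in annotated span and in size of change. Among protein-coding genes their median level was 6.46 log2 CPM, against 3.76 for those called higher and 4.47 over all. The part of level in the other differences was not tested. The median difference of the protein-coding genes called lower was -0.22, against 0.56 for those called higher. Their median annotated span was 99.0 kb (n = 249), against 23.1 kb (n = 750) for higher genes and 23.3 kb over all 16495 protein-coding genes tested. The largest negative differences were those of Itga4, an integrin of leukocytes, at -0.53 ± 0.14 (edgeR adjusted p = 0.0498), and Atp7a, a copper transporter, at -0.52 ± 0.11 (edgeR adjusted p = 0.0123). Soga1 followed at -0.50 ± 0.11 and Dusp4, a phosphatase of MAP kinases, at -0.47 ± 0.09 (edgeR adjusted p = 0.00419). Hipk2, a nuclear kinase, was at -0.43 ± 0.08, Naalad2 at -0.43 ± 0.09 and Cdyl2 at -0.43 ± 0.10, and high libraries lay below low ones in all 4 groups for Dusp4, Hipk2, Cdyl2 and Naalad2, as for 0.161% of all genes. Ston1, Uprt, Dock11, Prex2, Adamtsl3, Lrch3, Atm and Pdzd2 lay between -0.46 and -0.39. Itga4 passed in 3 of the 18 runs that left out 1 library, Dock11 in 5, Uprt and Atm in 6 and Adamtsl3 in 14. Soga1, Ston1, Prex2 and Pdzd2 passed in 17, all but the run without HDM_CP 66, while Atp7a, Dusp4, Hipk2, Naalad2, Cdyl2 and Lrch3 passed in all 18.

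This count was the least stable. It was 0 without HDM_SAL and 1051 with log2(TPM + 1), where 666 genes were higher and the median of all genes shifted to -0.06. It was 71 without HDM_CP 66, 95 without HDM_SAL 72, 96 without HDM_SAL 54, 103 without HDM_SAL 50, 111 without HDM_SAL 52, 123 without PBS_SAL 64, 133 without PBS_CP 59 and 155 without HDM_CP 45. It was 789 without HDM_CP 98, 670 without PBS_SAL 104 and 594 without PBS_CP 102.

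The change per unit of score was then set side by side in HDM and PBS mice, which are separate animals. For the 3 axoneme lists the median slope was 1.22 to 1.38 log2 units per unit of score in 13 HDM libraries and 1.12 to 1.25 in 14 PBS libraries. For club cell genes it was 1.22 in HDM and 0.44 in PBS libraries, for shared airway epithelium 0.79 and 0.38, and for xenobiotic enzymes 0.72 and 0.04. For goblet and mucus genes the order was the other way, at 1.98 in HDM and 3.24 in PBS libraries. In the only high PBS_CP library, Clca1 was at 515 CPM, against 4.10 and 8.12 CPM in the low ones. Muc5ac was at 42.6 against 1.88 and 3.11 CPM, and Muc5b at 89.3 against 13.5 and 24.3 CPM. Muc20 lay nearer, at 11.4 against 9.29 and 10.5 CPM, as did Spdef, at 1.76 against 1.31 and 1.43 CPM. High and low PBS_SAL libraries overlapped for Clca1, Muc5ac and Muc5b but not for Muc20 and Spdef. The part of that PBS_CP library in the slope was not tested. Sox2 had a slope of 1.72 ± 0.21 in HDM and 0.97 ± 0.29 in PBS libraries, and Scgb1a1 one of 1.18 ± 0.27 and 0.38 ± 0.39. No gene passed the test of the difference between these slopes by edgeR over 27250 genes (0%; 1066 at an unadjusted p under 0.05; 1 by DESeq2); differences between whole lists were not tested.

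The same held for combustion products. The slopes in CP and saline libraries differed in no gene by edgeR (0%; 981 at an unadjusted p under 0.05; 0 by DESeq2), although 1 gene passed without HDM_CP 66. Compared within parts of the series, the classes gave 618 higher and 233 lower genes among HDM libraries, 421 and 100 among saline libraries, 1 and 0 among PBS libraries (1205 at an unadjusted p under 0.05) and 0 among CP libraries (1922). PBS libraries supplied 3 high and 4 low libraries, and CP libraries 4 and 4. The axoneme lists kept medians of 0.58 to 0.65 in PBS and 0.50 to 0.64 in CP libraries, where nearly no gene was called.

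**Figure D5:**
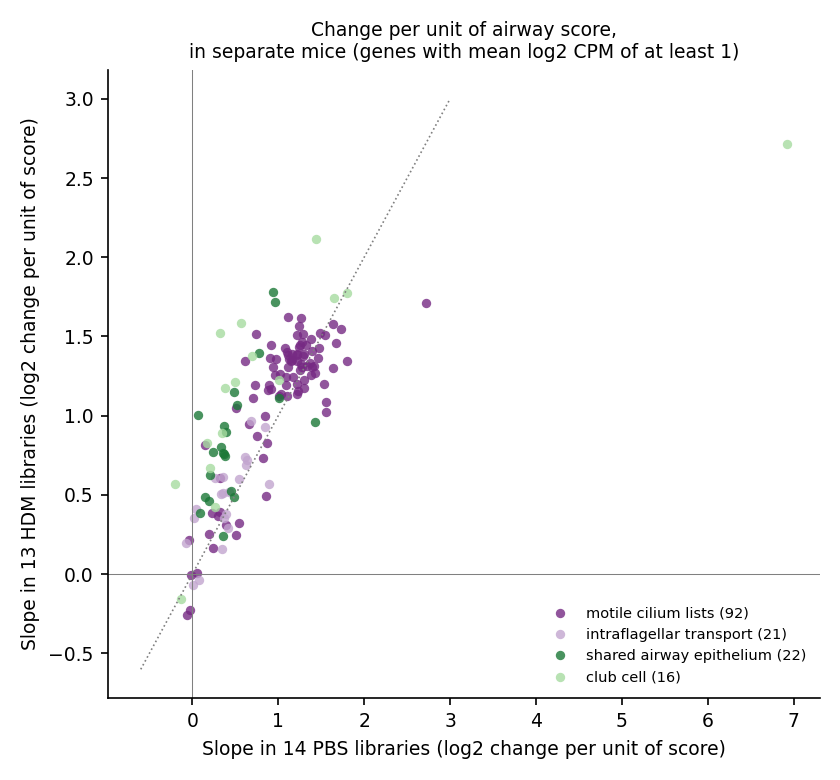
Change per unit of score (log2) in 13 HDM libraries against that in 14 PBS libraries, for listed genes whose mean log2 CPM reached 1; the dotted line marks equal slopes. Motile cilium genes, which share their program with the score genes, gather near the line. Most club cell and shared epithelium genes lie above it, and the point at the far right is Scgb3a1 (6.93 in PBS, 2.71 in HDM). Scgb3a1 was at 65.4 CPM in the high library PBS_SAL 105, against 1.49 to 3.59 CPM in the other PBS_SAL libraries. The part of that library in the slope was not tested.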

How the data were processed

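The 27 libraries were made from whole mouse lung RNA after polyA selection, with 20 M paired-end reads of 150 bases planned per the labels' protocols. The submitters' processing notes name the build GRCm39, StringTie 2 and STAR (release of STAR: not given in the sources used here). The authors deposited estimated counts and TPM for 56941 genes; how the counts were made is not stated, and their sums (56.3 M to 84.5 M) lie above the planned number of reads, so the counting error of low genes is unknown. The TPM values, normalized by the authors, sum to at most 999999 per library and were used for the score. Strand use is not stated, so overlapping genes cannot be told apart.

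The deposited estimated counts, rounded, were tested in R 4.3.3 with edgeR 4.0.16: filterByExpr with a minimum count of 10, trimmed mean of M values, robust quasi-likelihood tests with group and class, and Benjamini-Hochberg adjustment over all genes but the 4 score genes, with a threshold of 0.05 and 13 residual degrees of freedom. Standard errors are the fold change divided by the square root of F. The slope tests used the continuous score in all 27 libraries. Levels are CPM, and log2 CPM used a prior count of 2. Simulated counts with known changes were used to test the scripts.

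The members and the 49 gene lists (738 of 744 genes in the files) were chosen with earlier results of these data known. Named were the score genes, the 15 largest called changes in each direction outside the ciliated lists whose mean log2 CPM reached 1, from each list all called members if 5 or fewer and otherwise the 4 of smallest p, and marker genes set by name; the text gives a selection of these. Alternatives were other scaling, DESeq2 1.42.0, limma 3.58.1 (voom or log2 TPM), other filters, other class sizes and scores, parts of the series and each library left out. A covariate for the mitochondrial share and the runs without HDM_SAL, without its 3 libraries over 3% mitochondrial counts and without libraries under 60 M were added after the data were seen. Ccno, Spag16 and Iqca were chosen for their promoter match after their values were seen.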

Additional observations from a re-analysis of the deposited data

Results flagged for a closer look

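Within the 4 study groups, 104 sets of values (the score, 3 library properties, the score genes and 18 further genes) were examined for a library that stood apart from the rest of its group by a gap large against the group's range, and 8 did so. Chance alone flags about 1 in 20 such sets.

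PBS_CP 57 stood apart 3 times: Deup1 was at 7.66 TPM against 2.34 to 3.34 TPM in the other PBS_CP libraries, Pigr at 150 CPM against 49.8 to 69.0 CPM, and Agr2 at 2.16 CPM against 0.166 to 0.424 CPM. It is the only high library of its group, so every value of the high class in PBS_CP rests on it. Without it 722 genes were higher and 191 lower.

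Scgb3a1, a secretoglobin, stood apart in 3 groups. It was at 65.4 CPM in the high library PBS_SAL 105, against 1.49 to 3.59 CPM in the other PBS_SAL libraries. It was at 4.15 CPM in the low library HDM_SAL 52, against 38.7 to 97.0 CPM, and at 11.6 CPM in the low library HDM_CP 66, against 69.1 to 223 CPM. Muc5b was at 44.7 CPM in HDM_CP 66, against 147 to 326 CPM. The total estimated count of HDM_SAL 72, at 83.3 M, lay above the 70.5 M to 73.0 M of the other HDM_SAL libraries. Without HDM_SAL 52 the fitted difference of Scgb3a1 was 1.89, without HDM_CP 66 it was 1.87 and without PBS_SAL 105 it was 1.44, against 2.03 with all libraries; for Muc5b it was 1.43 without HDM_CP 66, against 1.55.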

How the results depend on the processing

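No paired analysis was possible because each library number occurs in 1 group only.

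The number of genes called in both directions, 1078, moved by more than 1.5 times with DESeq2 (2147, 1240 higher and 907 lower), limma voom with quality weights (2536, 1424 and 1112), log2(TPM + 1) (1717, 666 and 1051), log2(TPM + 0.1) (1703, 656 and 1047), 3 classes over 27 libraries (1784, 695 lower) and the continuous score (2196, 1264 and 932). It was 562 with 7 against 7 libraries (497 and 65), 415 with 2 and 2 per group (404 and 11), 1835 for a score without Rp1 (801 lower), 1733 without Deup1 (636 lower), 454 without Tppp3 (440 and 14) and 607 with club cell genes (478 and 129). Parts of the series gave 1 among PBS libraries (1 and 0), 0 among CP libraries (0 and 0) and 521 among saline libraries (421 and 100). A fold limit of 1 on the log2 scale left 39 (34 and 5), the mitochondrial covariate 18 (18 and 0), the data without HDM_SAL 260 (260 and 0), without libraries under 60 M 2285 (1263 and 1022), and without HDM_SAL 54, 50 and 99 290 (286 and 4). Only the lower count moved without a filter on low counts (158), with counts divided by 4 (401), with 13 against 13 libraries (103) and for a score without Foxj1 (98), and only the higher count with log2(TPM + 1) and no filter (454). Leaving out 1 library gave 699 to 1747 genes, 613 to 985 higher and 71 to 789 lower. The causes were not tested; leaving out libraries also leaves fewer degrees of freedom.

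The slope difference for the allergen gave 0 genes, and 1 with DESeq2. That for combustion products gave 0, and 0 to 1 when 1 library was left out.

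Of the named genes, 5 that did not pass the test (Sftpc, Ager, Acta2, Hba-a1 and Cyp1a1) and Sprr2a1 changed direction in some setting. Sprr2a1 was at -0.54 with the club cell score. Sftpc was at -0.034 with TPM (3 settings), -0.029 with CP libraries only, -0.033 with the mitochondrial covariate, -0.039 with 7 against 7 and without HDM_SAL, -0.044 with 2 and 2 per group, -0.043 without the 3 high HDM_SAL libraries, -0.012 for a score without Tppp3, -0.022 with PBS libraries only and -0.0012 to 0.047 without single libraries. Ager was at -0.020 with PBS libraries only. Acta2 was at -0.0077 with TPM (3 settings), -0.036 with 13 against 13 libraries, -0.022 with a score from log2 CPM, -0.070 without Deup1, -0.027 with the club cell score, -0.13 with CP libraries only and -0.040 to 0.13 without single libraries. Hba-a1 was at 0.32 with the mitochondrial covariate. Cyp1a1 was at -0.25 without the group covariate, -0.13 with 2 and 2 per group, -0.033 without Tppp3 and -0.24 with PBS libraries only. The medians of the 6 ciliated, 3 airway and shared epithelium lists were positive in all 50 alternatives, from 0.45 to 0.72 for dynein genes and from 0.17 to 1.69 for goblet genes. A constant sign was not particular to them. The gland, fat, mitochondrial and aryl hydrocarbon receptor lists were positive in all 50 as well. The B cell, T cell, natural killer and glucocorticoid lists were negative in all 50.

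Without counts per read pair the sampling error of weakly expressed genes, such as Mcidas and Agr2 in PBS mice, is unknown.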
